A study of Mus musculus with 19 samples.

Results

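The neurotrophin and GDNF genes described here are 8 of the 35734 genes listed in any of the 3 mouse retina tables of the series. They were taken by gene symbol: the ligands Bdnf and Ntf3, the neurotrophin receptors Ngfr, Ntrk2 and Ntrk3, the sorting receptor Sort1, and the GDNF receptor genes Gfra1 and Ret. Ngfr was lower in Pou3f1 cells at 48 h and at 14 days, Gfra1 was higher at 14 days, and Bdnf was lower in knockout retina. The other 5 genes passed the test in none of the 3 comparisons by the authors' adjusted p.

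The 19 RNA-seq libraries fall into 6 groups. In the overexpression experiment, eyes of wild-type CD1 pups were electroporated on postnatal day 1 with plasmid DNA at 3 µg/µl, carrying Gfp alone or Pou3f1, and fluorescent cells were sorted. At 48 h there were 3 Gfp and 3 Pou3f1 libraries, and at 14 days 4 Gfp and 5 Pou3f1 libraries. The late groups were collected 14 days after electroporation by their descriptions and on postnatal day 14 by the protocol. Each sorted replicate was combined from several sorts to 150000 cells, and neither the plasmid promoter nor the cell types that took it up could be read from the labels. The loss-of-function groups came from the C57B6J strain as whole embryonic retina collected at E17.5, with 2 libraries heterozygous for Pou3f1 and 2 from the Pou3f1 knockout. Its controls are thus heterozygous for the targeted allele, and the design of the allele could not be read from the labels.

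Neurotrophins are secreted survival and growth factors. BDNF signals through the receptor tyrosine kinase TrkB, which Ntrk2 encodes, and neurotrophin-3, the product of Ntf3, mainly through TrkC, which Ntrk3 encodes. Ngfr encodes p75, a receptor that binds all mature neurotrophins with low affinity and, together with sortilin from Sort1, their uncleaved precursors. GDNF first binds GFRα1, a lipid-anchored receptor encoded by Gfra1, and the complex then activates the receptor tyrosine kinase Ret. In the retina BDNF is best known as a survival factor of retinal ganglion cells, the neurons whose axons form the optic nerve, and p75 is found on Müller glia in rodents.

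Values are those of the authors' comparisons, 1 line per gene with no values per library, so each log2 fold change stands for a whole group. Fold changes appear shrunken toward 0, which lowers those of weakly counted genes most. The label of retina was met by the rod arrestin gene Sag, at a mean count of 256267 at 14 days, while Sag was not listed at 48 h. The sum of the mean normalized counts was 16020842 at 48 h and 38507471 at 14 days, and for E17.5 there was neither abundance nor a standard error (SE). The median SE among tested genes was 0.199 at 48 h and 0.15 at 14 days. Pou3f1, the gene added or removed, had a log2 fold change of 0.91 ± 0.26 (SE) at 48 h and 5.57 ± 0.27 at 14 days, and -0.69 in the knockout, in the authors' deposited tables (DESeq2 adjusted p = 0.0233, 3.40e-88 and 1.98e-08). Its sign fixed the reading of the tables, as Pou3f1 over Gfp and as knockout over heterozygote, so it is no independent check of the direction. The name of the E17.5 table puts the heterozygote first and gives another embryonic day than the labels, so if it were read the other way all E17.5 signs would turn. Nothing in the labels ties the replicates to separate animals, so the p-values cover the spread between samples and no more. Rose and fell are used where the authors' DESeq2 adjusted p was under 0.05.

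Sequences before a RefSeq transcription start were compared for Ngfr, Gfra1 and Bdnf, the members that changed. They are shown because a POU factor was added or removed. RefSeq (GRCm38.p6) held windows for 5 of the 8 members, 12 windows in all. The 250 bases before each start were searched on both strands for the octamer ATGCAAAT that Oct factors bind, the looser ATGNAAAT, the homeodomain core TAATTA, the GC box GGGCGG and TCACGTCA, known from rat Bdnf as a site for the factor CREB. The 3 windows, read 5′ to 3′ on the strand of the gene, follow with GC boxes and the TCACGTCA match in capitals. They lie at chr11:95587699-95587948 for Ngfr (minus strand), chr19:58455399-58455648 for Gfra1 (minus strand) and chr2:109692186-109692435 for Bdnf (plus strand).
Ngfr: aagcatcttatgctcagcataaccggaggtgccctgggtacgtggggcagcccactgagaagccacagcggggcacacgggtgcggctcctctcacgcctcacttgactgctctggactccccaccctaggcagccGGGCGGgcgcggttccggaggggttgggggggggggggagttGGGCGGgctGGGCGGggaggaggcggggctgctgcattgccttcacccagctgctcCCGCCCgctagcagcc
Gfra1: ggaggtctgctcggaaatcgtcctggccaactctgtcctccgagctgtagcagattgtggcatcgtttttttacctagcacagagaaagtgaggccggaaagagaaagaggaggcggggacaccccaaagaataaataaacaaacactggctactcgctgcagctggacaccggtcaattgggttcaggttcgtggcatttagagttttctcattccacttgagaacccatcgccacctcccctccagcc
Bdnf: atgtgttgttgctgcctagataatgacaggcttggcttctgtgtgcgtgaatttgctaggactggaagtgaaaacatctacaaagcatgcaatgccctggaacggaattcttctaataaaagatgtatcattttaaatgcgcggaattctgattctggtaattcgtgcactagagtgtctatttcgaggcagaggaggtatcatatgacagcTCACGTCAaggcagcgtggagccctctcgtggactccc
No match to ATGCAAAT, ATGNAAAT or TAATTA was found in any of the 12 windows, which says only that those letters are not in these windows. Among all 32851 windows, 1.6% held ATGCAAAT, 5.03% ATGNAAAT and 4.84% TAATTA. The Ngfr window held 4 GC boxes, 3 of them on the plus strand of the gene, a motif found in 32.7% of all windows, and 70.4% of its bases were G or C against a median of 52.4% over all windows. The Gfra1 window, at 52.4% G or C, held none. The Bdnf window shown, 1 of 7 and chosen for this match, held TCACGTCA 38 bases before the start, a motif found in 0.35% of all windows, and 45.6% of its bases were G or C.

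The members lie on 7 chromosomes in GRCm38 (GENCODE release 21). Ngfr spans chr11:95568818-95587735 and Gfra1 chr19:58235604-58455909, both on the minus strand. Bdnf spans chr2:109674700-109727007 on the plus strand, and Ntf3 chr6:126101412-126166910 and Ret chr6:118151745-118197718 on the minus strand. Ntrk2 spans chr13:58806569-59133970 and Sort1 chr3:108284082-108361511 on the plus strand, and Ntrk3 chr7:78175959-78738012 on the minus strand. The RefSeq starts differ from the outermost GENCODE starts used for these spans. The Gfra1 window shown therefore lies inside the Gfra1 span, the Ngfr window overlaps the start of its span, and the Bdnf window, before an internal start, lies inside the span of Bdnf. Genes annotated on the opposite strand overlap 5 of the 8 (Ntrk2, Ntrk3, Bdnf, Sort1 and Gfra1). These overlaps are of whole gene spans, introns included, and none of the overlapping genes is listed in any comparison. Whether counting used strand is not given in the sources used here, so a share of their reads in the counts of the members was not tested.

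Levels per kilobase were ordered Sort1, Ngfr, Gfra1, Ret, Ntrk2, Bdnf, Ntrk3 and Ntf3 at 48 h. Sort1 had 683 mean normalized counts per kilobase of its longest transcript at 48 h and 1260.5 at 14 days, from mean counts of 4666 and 8617 in the authors' deposited tables. Ngfr followed with 510 and 332, and Gfra1 with 355 and 239. Ntrk2 stood at 17 per kilobase at 48 h and at 253 at 14 days, and Ntrk3 at 6.24 and 42.1. Bdnf had 10.1 and 36.3 per kilobase, and Ret 48.3 and 37.0. Ntf3 was lowest at 3.22 and 7.22 per kilobase. At 14 days the order was Sort1, Ngfr, Ntrk2, Gfra1, Ntrk3, Ret, Bdnf and Ntf3. The means pool both groups and carry no error, so whether neighbours in this order differ was not tested. The tables were normalized separately, and Ntrk2 and Ntrk3 make shorter isoforms, which the length used here does not allow for. Relative to its own table, Ntrk2 had a higher mean count than 28.2% of tested genes at 48 h and than 77.4% at 14 days. Sort1 stood above 96.5% and 95.8%.

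**Figure D1:**
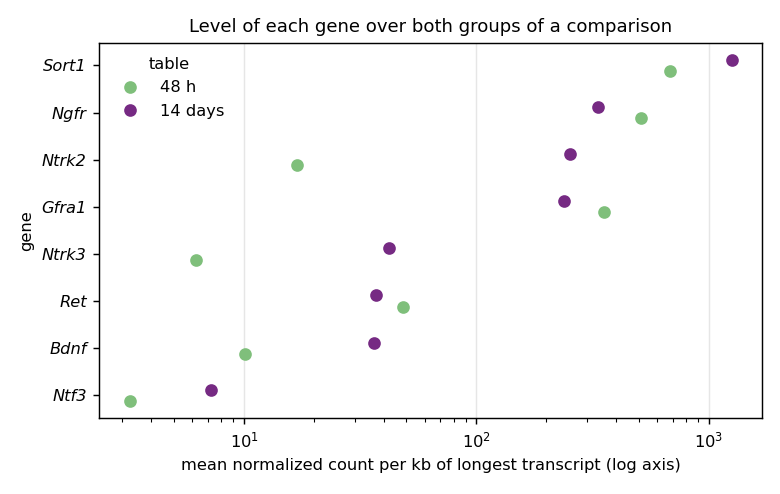
Mean normalized count per kilobase of the longest transcript (log axis) for the 8 genes, over both groups of each comparison, at 48 h (green) and 14 days (purple), with no error available. Sort1 lies highest at both times, and Ntrk2 stands at 17 at 48 h and 253 at 14 days.

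Of the ligands, Bdnf fell in knockout retina at E17.5. Its log2 fold change there was -0.35, or 1.28-fold lower, in the authors' deposited table (DESeq2 adjusted p = 0.0222). The Bdnf fall ranked 533 by size among 791 genes that fell at E17.5. In Pou3f1 cells the authors' deposited tables list Bdnf at 0.16 ± 0.29 at 48 h (mean count 43.0, DESeq2 adjusted p = 0.875) and -0.26 ± 0.18 at 14 days (mean count 155, adjusted p = 0.315). The 95% interval at 14 days ran from -0.60 to 0.09, so a fall as large as the E17.5 value was not excluded by its error. A rise of that size lay outside the interval. Pou3f1 was added in the 14 day cells and reduced in the E17.5 knockout. Ntf3 was near the limit of counting, at a mean count of 4.78 at 48 h, where the authors gave it no adjusted p, and 10.7 at 14 days. Its log2 fold changes in the authors' deposited tables were -0.19 ± 0.23, -0.35 ± 0.29 and, at E17.5, -0.15, the last 2 with DESeq2 adjusted p of 0.419 and 0.722. Markers of amacrine cells, the inhibitory interneurons of the inner retina, moved alongside Bdnf at E17.5, with 6 of 7 tested markers lower and 1 higher (median -0.93). Of 8 Müller glia markers 2 fell, of 8 blood vessel markers 3 fell, and of 12 ganglion cell markers 1 rose and 1 fell, where 4.7% of all tested genes were called higher and 5.34% lower. The part of these markers in the Bdnf result was not tested. In these bulk samples fewer cells of a type and less RNA per cell cannot be told apart.

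Ngfr, the p75 receptor gene, fell in Pou3f1 cells at both times. At 48 h, with a mean count of 1757, its log2 fold change was -0.87 ± 0.16, or 1.83-fold lower, in the authors' deposited table (DESeq2 adjusted p = 1.01e-05), with a 95% interval from -1.18 to -0.56. At 14 days, with a mean count of 1143, it was -0.54 ± 0.11 in the authors' deposited table (DESeq2 adjusted p = 7.72e-05), with an interval from -0.76 to -0.31. By adjusted p it ranked 10 among the 229 genes that fell at 48 h and 98 among 1639 at 14 days. In knockout retina, where Pou3f1 was reduced instead, Ngfr had -0.14 in the authors' deposited table (DESeq2 adjusted p = 0.437). Markers of Müller glia, the radial glia of the retina, lay below 0 with it, and so did most markers of several other cell types. At 48 h all 7 tested markers had log2 fold changes between -0.53 and -0.21, and none of them passed (DESeq2's unadjusted p was under 0.05 for 0 higher and 5 lower genes). Aqp4 was not listed at 48 h. Also below 0 at 48 h were 9 of 12 ganglion cell markers, 6 of 7 amacrine, 6 of 7 blood vessel, 4 of 4 astrocyte and 3 of 3 bipolar markers. Of these lists only that of blood vessels had a called marker, 1 of 7, where 1.56% of all tested genes were called lower. It was Kdr, whose mean count of 11683 stood far above that of Cdh5 (14.9) on the same list, so vessels need not be its source. The median log2 fold change of all tested genes at 48 h was -0.0059. At 14 days 4 of 8 Müller glia markers fell, among them Kcnj10 (-0.81 ± 0.13), Aqp4 (-1.11 ± 0.19) and Glul (-0.96 ± 0.19) in the authors' deposited table (DESeq2 adjusted p between 1.37e-07 and 1.51e-05). At 14 days 6 of 8 rod markers fell as well, where 9.21% of all tested genes were called lower. All 7 tested blood vessel markers lay below 0 at 14 days, and 1 of them passed. The median log2 fold change of all tested genes at 14 days was -0.015. The part of these markers in the Ngfr result was not tested.

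Sort1, the sortilin gene, passed in no comparison. The authors' deposited tables list it at -0.20 ± 0.14 at 48 h, then 0.08 ± 0.07 at 14 days, and -0.18 in the knockout (DESeq2 adjusted p = 0.568, 0.437 and 0.0837). Its 95% intervals, -0.48 to 0.08 and -0.05 to 0.22, lay within a 1.5-fold change either way. At E17.5 its unadjusted p in the authors' deposited table was 0.0104.

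Neither Trk gene passed. Ntrk2 had log2 fold changes of -0.29 ± 0.29 at 48 h, then -0.39 ± 0.20 at 14 days, and -0.045 in the knockout, in the authors' deposited tables (DESeq2 adjusted p = 0.722, 0.165 and 0.883). The 14 day interval, -0.79 to 0.0089, reached 0 at its upper end. For Ntrk3 the authors' deposited tables give 0.08 ± 0.27, -0.18 ± 0.15 and -0.16 (DESeq2 adjusted p = 0.943, 0.395 and 0.585). The Ntrk3 interval at 14 days, -0.47 to 0.10, lay within a 1.5-fold change, while at 48 h it ran from -0.44 to 0.60.

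Gfra1, the GDNF-binding receptor gene, rose 3.39-fold at 14 days and did not pass at 48 h. Its log2 fold change at 14 days was 1.76 ± 0.16 (mean count 1110) in the authors' deposited table (DESeq2 adjusted p = 5.22e-25), and the 95% interval of the fold ran from 2.73 to 4.23. It ranked 89 by size and 29 by adjusted p among the 2051 genes that rose. At 48 h, where its mean count was 1649, the authors' deposited table gives 0.06 ± 0.19 (DESeq2 adjusted p = 0.933), with an interval from -0.31 to 0.44. At E17.5 the value was 0.02 in the authors' deposited table (DESeq2 adjusted p = 0.961). Ret, which carries the kinase, did not pass. The authors' deposited tables list Ret at -0.23 ± 0.19 at 48 h and -0.08 ± 0.27 at 14 days (DESeq2 adjusted p = 0.652 and 0.870). The 14 day interval of Ret ran from -0.60 to 0.44 and lay below that of Gfra1. At E17.5 Ret had 0.27 in the authors' deposited table (unadjusted p = 0.00664, DESeq2 adjusted p = 0.061).

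Some markers of other cells were also higher at 14 days beside Gfra1, where 11.5% of all tested genes were called higher and 9.21% lower. All 5 microglia markers rose (median 1.4), among them Cx3cr1 (1.66 ± 0.23), Csf1r (1.71 ± 0.24) and Aif1 (1.43 ± 0.29) in the authors' deposited table. Of 8 amacrine markers 2 rose, Gad2 (1.21 ± 0.23) and Gad1 (0.82 ± 0.26), which encode the enzymes of GABA synthesis, in the authors' deposited table. Of 12 ganglion cell markers 2 rose and 1 fell, shares near those of all genes, and the list median was -0.13, with Pou4f2, a transcription factor of those cells, at 3.64 ± 0.26, Gap43 at 0.99 ± 0.21 and Nefh at -0.36 ± 0.13 in the authors' deposited table. The part of these markers in the Gfra1 result was not tested.

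**Figure D2:**
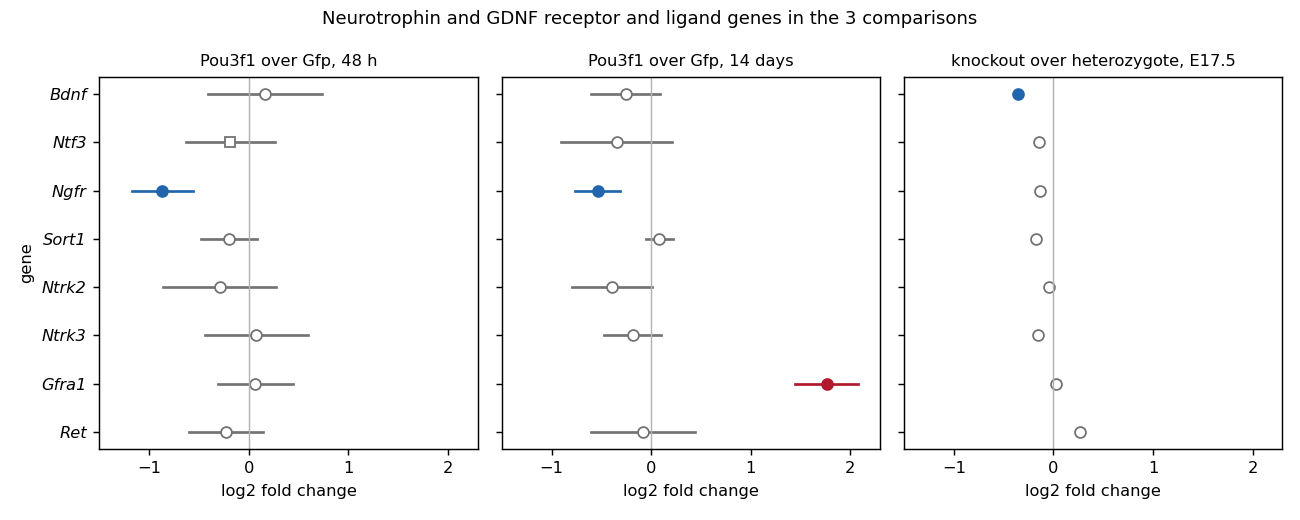
Log2 fold change of the 8 genes in each comparison (Pou3f1 over Gfp at 48 h and 14 days, knockout over heterozygote at E17.5), as point estimates with 95% intervals, which the E17.5 table does not allow. Filled blue points fell, filled red points rose, open points did not pass and the square (Ntf3 at 48 h) has no adjusted p. Ngfr is below 0 with its whole interval at both times, and Gfra1 stands at 1.76 at 14 days, 0.06 at 48 h and 0.02 at E17.5.

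Across the 8 genes, 1 of 7 with an adjusted p was called at 48 h, where 3.04% of all tested genes were (1.48% higher and 1.56% lower). At 14 days 2 of 8 were called against 20.7% of all genes (11.5% higher and 9.21% lower), a share near the background. In the knockout it was 1 of 8 against 10% (4.7% higher and 5.34% lower). With at least a 2-fold change required, 0 of 7, 1 of 8 and 0 of 8 were called, against 0.72%, 2.79% and 0.385% of all tested genes. At an adjusted p under 0.01 the E17.5 count was 0 of 8 against 5.9%. With so few genes the counts say nothing about the group, and its results are those of single genes. Median log2 fold changes were -0.2, -0.22 and -0.14, beside -0.0059, -0.015 and 0.0035 over all tested genes.

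The late and early responses were compared by a test of the difference itself. Gfra1 had a log2 fold change 1.70 ± 0.25 higher at 14 days than at 48 h (two-sided z test, Benjamini-Hochberg adjusted p = 5.94e-09 over 14580 genes), with a 95% interval from 1.21 to 2.19. It was the 1 member called among 7 tested, where 6.14% of all tested genes were called (4.48% above and 1.66% below). Ngfr differed by 0.33 ± 0.19 (z test, adjusted p = 0.349), with an interval from -0.047 to 0.71, so a smaller fall at 14 days than at 48 h was not shown. Differences of the other members were 0.28 ± 0.16 for Sort1, 0.15 ± 0.33 for Ret, -0.10 ± 0.36 for Ntrk2, -0.26 ± 0.30 for Ntrk3 and -0.42 ± 0.34 for Bdnf (z test, adjusted p from 0.327 to 0.924), and Ntf3 was not tested because it has no adjusted p at 48 h. The times differ in group sizes, in depth and in the pools sorted as well as in age. They also differ in the listed log2 fold change of Pou3f1 itself, 0.91 at 48 h and 5.57 at 14 days. Its mean count over both groups was higher at 48 h (37279) than at 14 days (16972). Why its log2 fold change was smaller at 48 h was not tested. These differences between the times cannot be told apart here. The log2 fold changes of the 2 times may also be shrunken to different degrees, which the z test does not allow for.

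**Figure D3:**
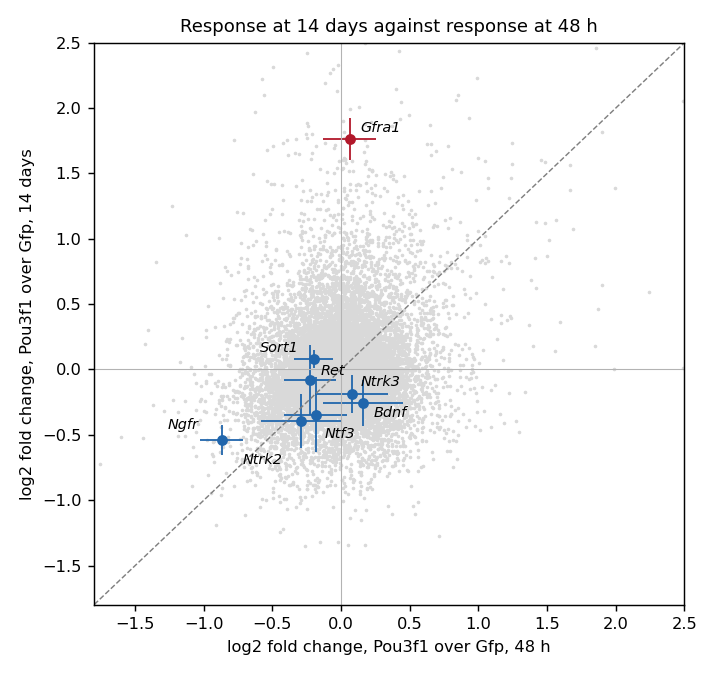
Log2 fold change at 14 days against that at 48 h for the 8 genes, with bars of ± SE, over all 14580 genes with an adjusted p at both times (gray). The dashed line marks equal values, and genes beyond the axis limits are not drawn. Gfra1 (red) lies far above the line, and Ngfr lies below 0 on both axes.

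The other genes of these pathways were read from 9 lists by role, 82 genes in all with the members. At 48 h 3 of 74 tested genes were called, or 4.05% against 3.04% of all genes, all of them lower. At 14 days 19 of 79 were called, or 24.1% against 20.7%, with a median log2 fold change of 0.08. By direction, 18 of the 79 rose, where 11.5% of all genes were called higher, and 1 fell, where 9.21% were called lower. At E17.5 1 rose and 5 fell of 75, or 8.0% against 10%. The lists were chosen with results known and are described by their counts alone.

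Of the genes for GDNF family ligands none passed in any comparison, and DESeq2's unadjusted p was under 0.05 for 0 higher and 1 lower gene at 48 h and for 0 at 14 days and at E17.5. Gdnf was barely counted, at mean counts of 1.75 at 48 h and 1.52 at 14 days, and Nrtn, which encodes neurturin, had -0.71 ± 0.28 at 48 h in the authors' deposited table (DESeq2 adjusted p = 0.166). The sortilin relative Sorcs2 fell at 48 h (-0.50 ± 0.16) and at E17.5 (-0.39) in the authors' deposited tables (DESeq2 adjusted p = 0.0443 and 0.00024), and at 14 days it had 0.37 ± 0.14 (adjusted p = 0.0504). Sorcs3, another relative, rose at 14 days at 0.65 ± 0.21 in the authors' deposited table (DESeq2 adjusted p = 0.0127).

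At 14 days 6 of 9 genes on the p75 partner list, which also holds related receptors, rose, where 11.5% of all tested genes were called higher. All 9 lay above 0, with a median of 0.44 against -0.015 over all tested genes. Bex3, an adaptor of the p75 death domain, had 0.44 ± 0.11, Lingo1, a co-receptor in the Nogo receptor complex, 0.45 ± 0.14, and Nradd, a p75 homolog, 0.79 ± 0.24 in the authors' deposited table (DESeq2 adjusted p between 0.000897 and 0.00891). Tnfrsf19, a receptor of the same family that can stand in for p75 in the Nogo receptor complex, fell at 48 h (-0.89 ± 0.19) and rose at 14 days (1.004 ± 0.30) in the authors' deposited tables (DESeq2 adjusted p = 0.00068 and 0.00689). These rises stand beside the fall of Ngfr itself at 14 days.

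Among 24 genes for adaptors of Trk and Ret, 6 rose at 14 days, where 11.5% of all tested genes were called higher, and the median was 0.09. They included the docking proteins Gab2 (1.06 ± 0.18), Dok5 (1.54 ± 0.26) and Dok6 (0.73 ± 0.15) and the phospholipase gene Plcg1 (0.55 ± 0.13) in the authors' deposited table (DESeq2 adjusted p between 2.27e-07 and 0.000322). At 48 h none of 23 passed, where 3.04% of all genes were called, and DESeq2's unadjusted p was under 0.05 for 3 higher and 0 lower genes. Kidins220, a scaffold of Trk and p75, fell at E17.5 at -0.25 in the authors' deposited table (DESeq2 adjusted p = 0.0252). Of 10 tested genes on a broader list for neurotrophin processing, 2 rose at 14 days, against the same 11.5% of all genes. Pcsk1, which encodes a proprotein convertase of secretory granules, had 2.27 ± 0.20 and the matrix protease gene Mmp9 0.66 ± 0.25 in the authors' deposited table (DESeq2 adjusted p = 1.80e-26 and 0.0431).

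Of 16 genes induced by the ERK cascade, which lies downstream of these receptors, 2 passed at 14 days and 2 at E17.5, where 20.7% and 10% of all tested genes were called. At 48 h none passed, against 3.04% of all genes, and DESeq2's unadjusted p was under 0.05 for 0 higher and 3 lower genes. At 14 days Vgf, a neuropeptide precursor gene induced by neurotrophins, rose by 0.79 ± 0.25 and Spred2, a feedback inhibitor, by 0.56 ± 0.16 in the authors' deposited table (DESeq2 adjusted p = 0.0107 and 0.00496). The median of the list was -0.047. At E17.5 the ERK phosphatase gene Dusp6 rose (0.24) and Dusp4 fell (-0.34) in the authors' deposited table (DESeq2 adjusted p = 0.0144 and 0.0041).

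**Figure D4:**
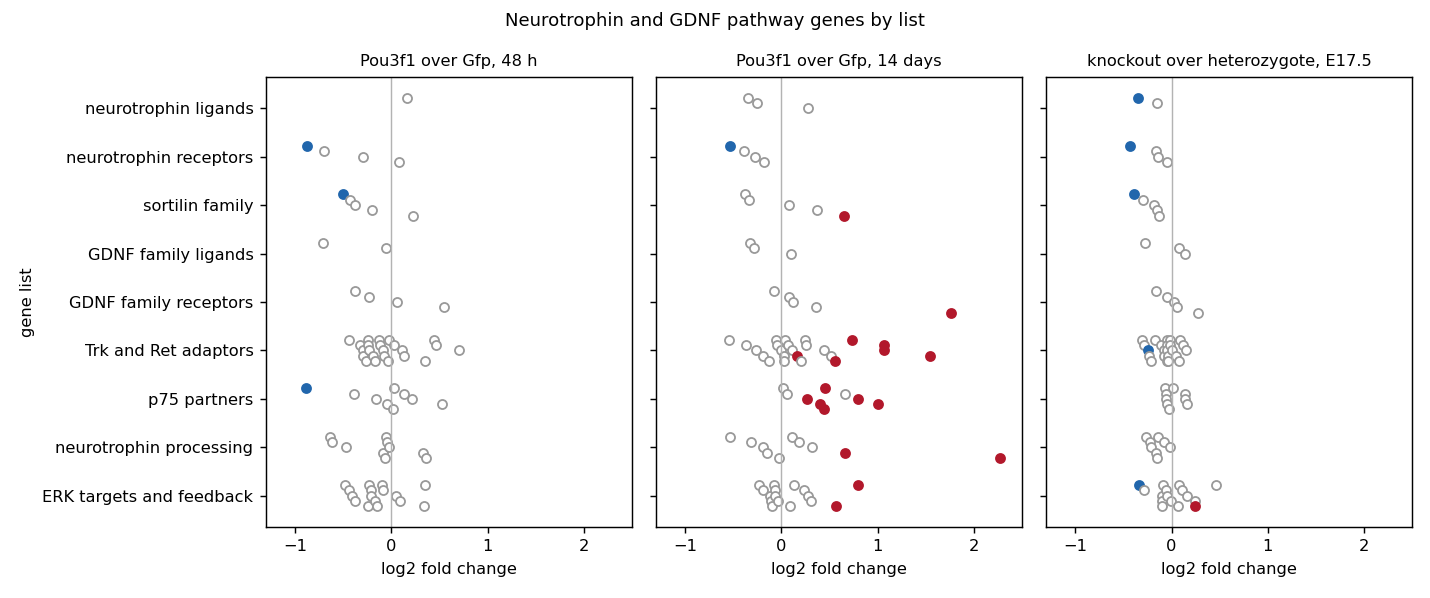
Log2 fold change of each tested gene by list and comparison. Filled red points rose, filled blue points fell, and open points did not pass. At 14 days all 9 genes of the p75 partner list lie above 0, while 2 of 16 ERK target genes passed.

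Across the 3 comparisons, the genes whose log2 fold changes lay nearest to those of Gfra1 were Pdzrn4, Klhl1 and Parp9, among 13167 genes with an adjusted p in all 3 tables. Their Euclidean distances over the 3 log2 fold changes were 0.0673, 0.123 and 0.157. In the authors' deposited tables Pdzrn4 had 1.81 at 14 days, Klhl1 1.72 and Parp9 1.61 (DESeq2 adjusted p between 6.84e-13 and 2.02e-07). A likeness over 3 values is a description of these tables.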

How the data were processed

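RNA-seq of 19 mouse retina libraries in 6 groups was read from 3 tables, each holding 1 comparison made by the authors. Per the submitters' processing notes the tools were Salmon, DESeq2 and MACS2 with mm10, with no version. Annotation and fit design were not given in the sources used here. Signal is the authors' mean normalized count over the libraries of a comparison, per the file headers. The log2 fold changes, with SE and Wald score in the overexpression tables, were deposited by the authors, and low-count genes carry small fold changes and small SE, so the values were read as shrunken toward 0. The p-value and adjusted p were deposited too. As checked on the values, the Wald score is the log2 fold change over its SE (largest difference 4.45e-07), and the adjusted p is Benjamini-Hochberg over the genes that have one (largest difference 5.6e-06). They number 14714 (48 h), 17789 (14 days) and 14821 (E17.5). The depth of single libraries is unknown.

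Calls use the authors' adjusted p under 0.05. Added here were 95% intervals (1.96 SE) and levels per kilobase of the longest GENCODE release 21 transcript. Also added was a two-sided z test per gene of the 14 day minus the 48 h log2 fold change. The z test was run on simulated data with normal errors of the listed SE. That simulation had no shrinkage, so it does not show how the test behaves on shrunken values. Sequences are from RefSeq. Named genes were the 8 members, Pou3f1, up to 4 called genes per pathway list and up to 3 per marker list by adjusted p, and the 3 genes nearest to the member with the largest called change at 14 days, leaving out predicted names. Some genes that this rule picks are not reported here. Sorcs2 at 14 days, Nrtn and Gdnf were named after their values were seen. Members, lists and motifs were chosen with earlier results of these data known. Alternatives tried were a 2-fold limit, a threshold of 0.01, adjustment over all genes, a mean count minimum of 10 and, for the difference, centring on the median. Software was scipy 1.17.1, numpy 2.4.6, pandas 2.3.3 and matplotlib 3.10.9 under Python 3.11.15.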

Additional observations from a re-analysis of the deposited data

Results flagged for a closer look

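Besides Gfra1, 6 genes of the pathway lists had log2 fold changes that differed between 14 days and 48 h by the same z test, all of them higher at 14 days. Of 74 pathway genes tested, 7 were thus above and 0 below, where 4.48% and 1.66% of all tested genes were. The difference was 2.35 ± 0.31 for Pcsk1, 1.70 ± 0.25 for Gfra1, 1.89 ± 0.35 for Tnfrsf19 and 1.58 ± 0.39 for Dok5 (z test, adjusted p = 5.43e-11, 5.94e-09, 1.45e-05 and 0.00303). For Sorcs2 it was 0.87 ± 0.21, for Pcsk5 0.93 ± 0.25 and for Lingo1 0.84 ± 0.25 (z test, adjusted p = 0.00227, 0.00826 and 0.0242). Tnfrsf19 passed at both times in opposite directions, while Sorcs2 fell at 48 h and Pcsk1, Gfra1, Dok5 and Lingo1 rose at 14 days. Pcsk5, a proprotein convertase gene, had -0.61 at 48 h and 0.32 at 14 days in the authors' deposited tables and passed at neither time.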

How the results depend on the processing

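No paired analysis was possible because the tables hold no values per library, and leaving out single replicates was not run for the same reason. With at least a 2-fold change required, 0 members were called at 48 h, 1 at 14 days and 0 in the knockout, and of the pathway genes 0, 6 and 0. Ngfr lost its call at both times and Bdnf at E17.5, since their changes are under 2-fold, and Gfra1 at 14 days kept its call. At an adjusted p under 0.01, 0 members and 2 pathway genes were called at E17.5, where Bdnf lost its call. Under the alternatives 8 counts moved by more than 1.5 times and 18 did not. Adjustment over every gene with a p-value ended the call of Sorcs2 at 48 h (adjusted p = 0.0672) and left those of Ngfr, Gfra1 and Bdnf in place. These alternatives leave the log2 fold changes as they are, so they do not bear on direction, except that centring each table shifts the 14 day minus 48 h differences, of which none turned. Low counts limit what can be said of Ntf3 and Gdnf, and the missing SE what can be said of E17.5.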

Other observations

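Other markers of retinal cells were read beside the receptor genes. Of all tested genes, 1.48% were called higher and 1.56% lower at 48 h, and 11.5% and 9.21% at 14 days. At E17.5 the shares were 4.7% and 5.34%. Single calls in lists this short are no result about a cell type. At 14 days 6 of 8 rod markers fell, among them Pde6a, a phosphodiesterase subunit gene (-0.75 ± 0.22), and Sag, the arrestin gene (-0.57 ± 0.17), in the authors' deposited table, while 6 of the 8 were not listed at 48 h. Of 7 bipolar markers at 14 days 1 rose and 1 fell, the latter Grik1, a kainate receptor gene (-0.40 ± 0.15), in the authors' deposited table. On the blood vessel list 1 of 7 fell at 48 h (Kdr, -0.63 ± 0.15), 1 of 7 at 14 days (Flt1, -0.86 ± 0.21) and 3 of 8 at E17.5, Kdr among them, in the authors' deposited tables. Kdr had a mean count of 11683 at 48 h, where Cdh5, Flt1 and Cldn5 of the same list had 14.9, 54.2 and 158. Its fall at 48 h is therefore not read as a result about vessels, and which cells carried Kdr was not tested. Of 4 pigment epithelium markers at 48 h Best1 rose (1.4 ± 0.29) with a list median of 0.17, and of 6 at 14 days Mitf rose (0.80 ± 0.17) while 4 lay below 0 (median -0.16), in the authors' deposited tables. At E17.5 the astrocyte marker Pax2 fell (-0.50) while the other 2 tested lay above 0 (list median 0.33), and of 5 horizontal cell markers Onecut1 fell (-0.36), in the authors' deposited table.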
